A study of Mus musculus with 14 samples.

Results

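The white adipocyte genes described here are 10 genes that mark or serve the fat-storing cell: Adipoq, Lep, Retn, Plin1, Plin4, Cidec, Fabp4, Lipe, Pnpla2 and Pparg. They were taken by name from the count tables of aorta and of liver, where each of the 10 has 1 row among 24732 features, and the rule for finding them used names alone. The libraries came from mice of 2 genotypes, HuBL and BT3xHuBL, kept on ordinary laboratory chow for 52 weeks. There were 3 HuBL and 3 BT3xHuBL aortas, and 4 HuBL and 4 BT3xHuBL livers, numbered within each group as in the labels. The labels do not spell out the alleles. As background, HuBL in this field names mice that carry a human apolipoprotein B transgene and lack the LDL receptor, a trait then shared by all 4 groups, and BT3 names mice whose T cells bear a transgenic receptor for that protein. The sources used here do not give sex, the number of animals per library or the part of the aorta taken. Whether each library stands for its own animal is not stated, and the p-values below reflect spread between libraries. That spread was larger than counting error alone would give. For pairs within a group, the chi-square was 12.2 to 75.7 times its degrees of freedom. How much of the spread was technical in other ways was not tested.

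Total counts ran from 41933263 to 65539765 per aorta library and from 13228123 to 17992459 per liver library. Tissue markers followed the labels: Tagln, a smooth muscle gene, lay at 3253 to 4276 CPM in aorta and 5.02 to 13.0 CPM in liver, and Alb, the hepatocyte gene for albumin, stayed below 1 CPM in every aorta. CPM stands for counts per 1000000 of a library's total, scaled within its own tissue. The receptor segment Vb14, the beta chain segment of the BT3 receptor as background, had 32 and 38 counts in BT3xHuBL aortas 1 and 2 but only 2 in BT3xHuBL aorta 3, against 10, 0 and 1 in the HuBL aortas. In liver the segment had 2, 3, 0 and 1 counts in BT3xHuBL livers 1 to 4 and 0 in every HuBL liver, too few to settle a genotype. Receptor counts therefore did not settle the genotype of the libraries labelled BT3xHuBL aorta 3 and HuBL aorta 1, or of the livers. The aorta genotype results are also given without BT3xHuBL aorta 3.

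White adipocytes store triglyceride in a single large droplet. Perilipins and CIDE proteins coat that droplet and let it grow, and lipases release fatty acids from it during fasting. A fatty acid binding protein carries the fatty acids, hormones such as adiponectin and leptin report the state of the store, and the nuclear receptor PPAR gamma switches on most of these genes. The aorta is wrapped in perivascular fat, which in mice holds brown-like and white adipocytes, while hepatocytes use partly different members of the same families. Several of the genes are not private to adipocytes: Fabp4 is also made by capillary endothelium and macrophages, and Pnpla2, Lipe, Plin4 and Pparg are active in other cells.

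All 10 genes were detected in all 6 aortas, and the adipokines and Plin1 were at or near 0 in liver. Libraries were prepared from the 3′ ends of transcripts, where a count stands for a transcript without a length term, so CPM are compared between genes below. CPM were scaled separately in each tissue, so an aorta level beside a liver level is a description, and the tests between tissues rest on a joint fit. Among the hormones, Adipoq encodes adiponectin, an insulin-sensitising hormone. Adipoq stood at 37.3, 39.8 and 22.4 CPM in HuBL aortas 1 to 3 and at 69.0, 36.6 and 41.6 CPM in BT3xHuBL aortas 1 to 3. The 2 genotypes overlapped, with BT3xHuBL aorta 1 the highest and HuBL aorta 3 the lowest. In liver, Adipoq had 1 count in BT3xHuBL liver 2 and 0 counts in the other 7 libraries. A count of 0 there allows up to 0.167 to 0.227 CPM depending on the library, the level of 3 counts, and this covers counting error only.

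Lep encodes leptin, the satiety hormone made in proportion to fat mass. Its levels were 1.52, 0.147 and 0.111 CPM in the HuBL aortas and 1.87, 0.913 and 0.682 CPM in the BT3xHuBL aortas. Those values rest on 98, 6 and 7 counts in HuBL and on 107, 61 and 42 counts in BT3xHuBL. HuBL aorta 1 stood with the BT3xHuBL aortas, far above its own group. Lep had 0 counts in all 8 livers. Retn encodes resistin, in mice a hormone of adipocytes. It lay at 11.2, 19.2 and 6.59 CPM in the HuBL aortas and at 21.3, 16.0 and 12.3 CPM in the BT3xHuBL aortas, again with overlap. In liver, Retn had 2 counts in HuBL liver 2 and 0 in the other 7.

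Of the droplet coat genes, Plin1 encodes perilipin 1, the adipocyte perilipin that restrains lipolysis until it is phosphorylated. Plin1 measured 28.5, 30.8 and 21.3 CPM in the HuBL aortas and 44.5, 17.0 and 39.2 CPM in the BT3xHuBL aortas, so that BT3xHuBL held both the highest and the lowest aorta. All 8 livers had 0 counts of Plin1. Plin4, a perilipin of nascent droplets that muscle also makes, was among the most abundant members. It measured 250, 218 and 239 CPM in the HuBL aortas and 305, 254 and 264 CPM in the BT3xHuBL aortas. Every BT3xHuBL aorta lay above every HuBL aorta for Plin4, by a narrow margin. Its liver values were 5.17, 4.86, 7.0 and 4.22 CPM in HuBL livers 1 to 4 and 6.25, 14.2, 6.64 and 5.12 CPM in BT3xHuBL livers 1 to 4. BT3xHuBL liver 2 stood apart from the other 7 livers, and the rest overlapped.

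Cidec encodes the CIDE protein that fuses droplets into the single large one of white fat. It measured 23.5, 25.9 and 17.5 CPM in the HuBL aortas and 53.1, 22.5 and 32.4 CPM in the BT3xHuBL aortas. The genotypes overlapped because BT3xHuBL aorta 2 sat among the HuBL aortas. In liver, where Cidec is a known gene of steatosis, it was low and scattered, at 0.57, 1.16, 3.01 and 3.94 CPM across the HuBL libraries, against 4.61, 3.04, 1.74 and 2.38 CPM across the BT3xHuBL ones. The lowest and highest HuBL livers enclosed 3 of the 4 BT3xHuBL livers.

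Fabp4, the adipocyte fatty acid carrier, was the most abundant member in aorta. It stood at 389, 451 and 241 CPM in the HuBL aortas and 504, 378 and 446 CPM in the BT3xHuBL aortas, with overlap. In liver, Fabp4 measured 7.13, 6.17, 5.42 and 6.53 CPM across the HuBL libraries, against 13.0, 4.56, 4.77 and 6.54 CPM across the BT3xHuBL ones. BT3xHuBL liver 1 was the high library there, and the other 7 lay close together.

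Pnpla2 encodes ATGL, the lipase that cleaves triglyceride to diglyceride. Its aorta values were 147, 135 and 117 CPM across the HuBL libraries, against 183, 161 and 166 CPM across the BT3xHuBL ones, with every BT3xHuBL aorta above every HuBL aorta. Its liver values were 61.8, 59.9, 52.8 and 59.9 CPM across the HuBL libraries, against 64.8, 74.1, 51.7 and 65.4 CPM across the BT3xHuBL ones, and these overlapped. Lipe encodes hormone-sensitive lipase, which acts on the diglyceride. Lipe measured 46.0, 52.2 and 35.2 CPM in the HuBL aortas and 64.0, 38.7 and 60.5 CPM in the BT3xHuBL aortas, where BT3xHuBL aorta 2 fell inside the HuBL range. Its liver values were 10.4, 15.0, 10.9 and 17.1 CPM across the HuBL libraries, against 20.0, 11.8, 14.9 and 17.0 CPM across the BT3xHuBL ones, with overlap.

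Pparg encodes PPAR gamma, the master regulator of adipocyte formation. It measured 19.0, 21.2 and 16.9 CPM in the HuBL aortas and 23.5, 22.7 and 23.9 CPM in the BT3xHuBL aortas, without overlap. In liver, Pparg measured 15.5, 12.7, 12.3 and 19.2 CPM across the HuBL libraries, against 18.5, 19.4, 13.0 and 13.6 CPM across the BT3xHuBL ones. Its aorta and liver ranges met. Reads at the 3′ end do not tell apart Pparg transcripts that begin at different start sites.

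**Figure D1:**
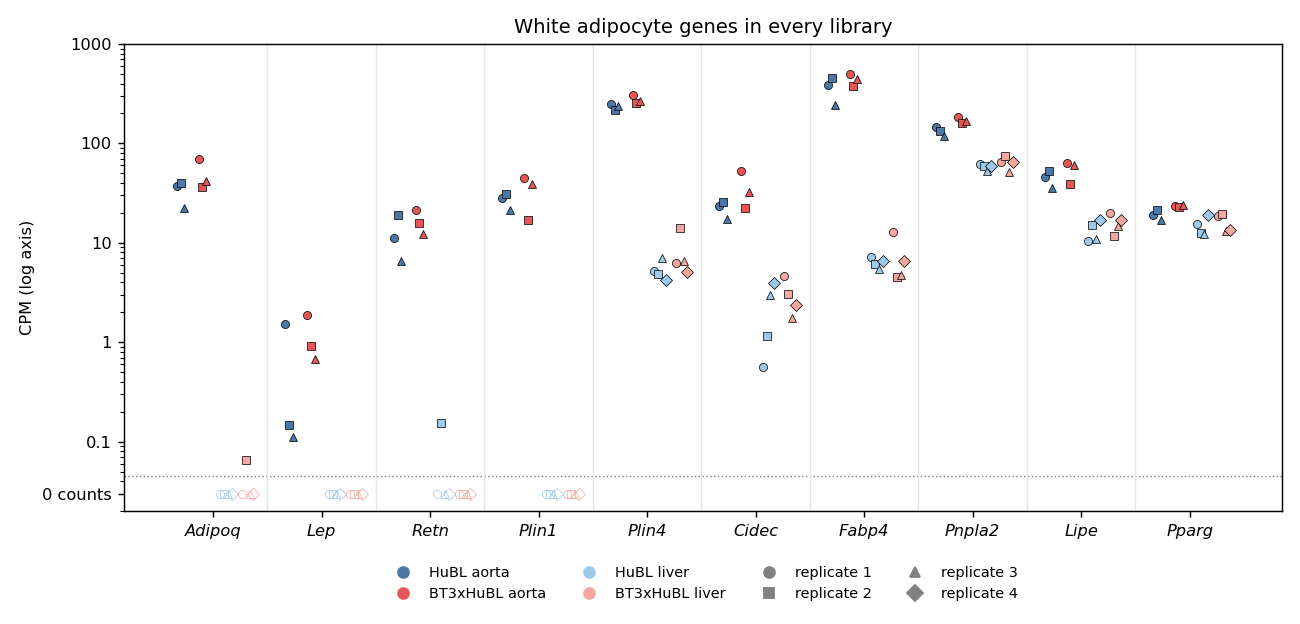
CPM of the 10 genes on a log axis, with 1 column per gene, a point for each of the 14 libraries and open points for 0 counts. Adipoq, Plin1, Lep and Retn sit in aorta and at or near 0 in liver, while Pnpla2, Lipe and Pparg are present in both tissues.

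Ordered by their median over the 6 aortas, the levels ran from Fabp4 at 417 CPM through Plin4 at 252 CPM, Pnpla2 at 154 CPM, Lipe at 49.1 CPM, Adipoq at 38.5 CPM, Plin1 at 29.6 CPM, Cidec at 24.7 CPM, Pparg at 22.0 CPM and Retn at 14.2 CPM to Lep at 0.798 CPM. The ranges of neighbours in that order met, except between Plin4 and Pnpla2, between Pnpla2 and Lipe, and between Retn and Lep. The order in liver was different. Pnpla2 led at a median of 60.9 CPM, followed by Lipe at 15.0 CPM, Pparg at 14.5 CPM, Fabp4 at 6.35 CPM, Plin4 at 5.71 CPM and Cidec at 2.70 CPM. There the range of Pnpla2 lay clear of Lipe, and the ranges of the next neighbours met down to Cidec.

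The comparison of tissues asked how far each gene belonged to aorta or liver. Because every aorta library came from 1 count table and every liver library from the other, tissue cannot be told apart from the set in which the libraries were counted, and fewer cells of a type cannot be told apart from less RNA per cell. By edgeR's quasi-likelihood test, with p-values adjusted (Benjamini-Hochberg) over all 14912 features tested, 83% of features differed between aorta and liver in HuBL mice and 83.1% in BT3xHuBL mice. Higher calls in aorta made up 44% of features in HuBL and 43.3% in BT3xHuBL, and lower calls 39% in HuBL. Of the 10 genes, 9 were called higher in aorta in both genotypes, and Pparg was called lower in HuBL. A call is therefore ordinary in this comparison, and the sizes carry more than the count.

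Plin1 and Lep had no liver count at all, so their folds are lower bounds against 3 counts over each liver group, on library totals. Plin1 was at least 530-fold higher in HuBL aorta than in HuBL liver and at least 697-fold higher in BT3xHuBL. Lep was at least 13.2-fold higher in HuBL and at least 24.0-fold higher in BT3xHuBL, limits set by its few aorta counts. HuBL aorta 1 held 98 of the 111 HuBL counts, and without it the HuBL limit was at least 2.51-fold. The HuBL call of Lep (edgeR adjusted p = 0.045) was lost without HuBL aorta 1, without BT3xHuBL aorta 2 or 3, and without any HuBL liver. Adipoq was at least 650-fold higher in HuBL aorta. In BT3xHuBL, the single liver count of Adipoq gave a ratio of 3076 with a counting interval of 552 to 121490. Retn gave a ratio of 344 in HuBL, with a counting interval of 95.2 to 2846 from 2 liver counts, and was at least 349-fold higher in BT3xHuBL aorta. These counting intervals are at the 95% level and leave out the spread between libraries. Library totals give larger aorta folds than the scaling of the fitted folds below, so these limits and ratios are not on the same scale.

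The other 6 genes had enough liver counts for a fitted fold. Fabp4 was higher in aorta by 5.06 on the log2 scale (SE 0.32) in HuBL and by 5.18 (SE 0.32) in BT3xHuBL. Plin4 was higher by 4.71 (SE 0.28) and 4.34 (SE 0.27), and Cidec by 2.57 (SE 0.46) and 2.85 (SE 0.45). All 6 of these values passed, with adjusted p between 8.7e-10 and 0.00016 in HuBL. The lipases differed far less. Lipe was higher in aorta by 0.96 (SE 0.22) in HuBL and 1.01 (SE 0.22) in BT3xHuBL on the log2 scale, and Pnpla2 by 0.41 (SE 0.11) and 0.65 (SE 0.11), all with adjusted p of 0.0032 or less by edgeR.

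Pparg went the other way, and its direction depended on the scaling. With scaling by trimmed means (TMM) it was lower in aorta by -0.43 on the log2 scale (SE 0.17, edgeR adjusted p = 0.027) in HuBL and by -0.22 (SE 0.16, edgeR adjusted p = 0.22) in BT3xHuBL. The HuBL call was lost without HuBL aorta 1 or 3 and without HuBL liver 1 or 4. With library totals alone Pparg was higher in aorta, by 0.35 and 0.52. The change of scaling moved the median of all features from 0.10 to 0.88 in HuBL and from 0.07 to 0.82 in BT3xHuBL, so Pparg lay below the median feature either way. Against that median of all features with library totals, Pnpla2 at 1.19 and Lipe at 1.73 in HuBL still lay above it.

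The families of the members divided between the tissues. Among perilipins, Plin2, the perilipin of most cells with droplets, was high in both, at 623 to 815 CPM in aorta and 394 to 653 CPM in liver. Plin5, the perilipin of oxidative tissues, lay at 1.28 to 3.56 CPM in aorta and 24.6 to 35.0 CPM in liver, opposite to Plin1 and Plin4. Among CIDE genes, Cidea, typical of brown fat, lay at 9.77 to 55.0 CPM in aorta and at most 0.225 CPM in liver, and like Cidec was higher in aorta. Cideb, which serves lipoprotein loading in hepatocytes, lay at 0.217 to 0.854 CPM in aorta and 225 to 313 CPM in liver. The tissue difference of Plin5 and of Cideb passed edgeR's test in both genotypes, at -4.62 (SE 0.31) and -9.89 (SE 0.33) on the log2 scale in HuBL.

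Fabp4 had a companion in Fabp5, the epidermal and macrophage carrier, at 716 to 975 CPM in aorta and 6.81 to 37.4 CPM in liver. Fabp1, the liver carrier, had at most 0.0155 CPM in aorta against 3285 to 6487 CPM in liver. Ppara, the fasting receptor of liver, lay at 2.80 to 10.3 CPM in aorta and 145 to 239 CPM in liver, whereas Ppard was spread over both at 32.0 to 36.7 CPM and 6.7 to 25 CPM. Around the lipases, G0s2, the inhibitor of ATGL, was low in aorta at 4.64 to 9.58 CPM and high in liver at 44.8 to 175 CPM. Abhd5, the coactivator of ATGL, lay at 43.1 to 50.2 CPM in aorta and 29.6 to 42.8 CPM in liver. Mgll, which completes lipolysis, lay at 162 to 203 CPM and 164 to 226 CPM. The tissue difference of G0s2 in HuBL was -3.98 on the log2 scale (SE 0.53) and passed edgeR's test, opposite in direction to that of Pnpla2.

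**Figure D2:**
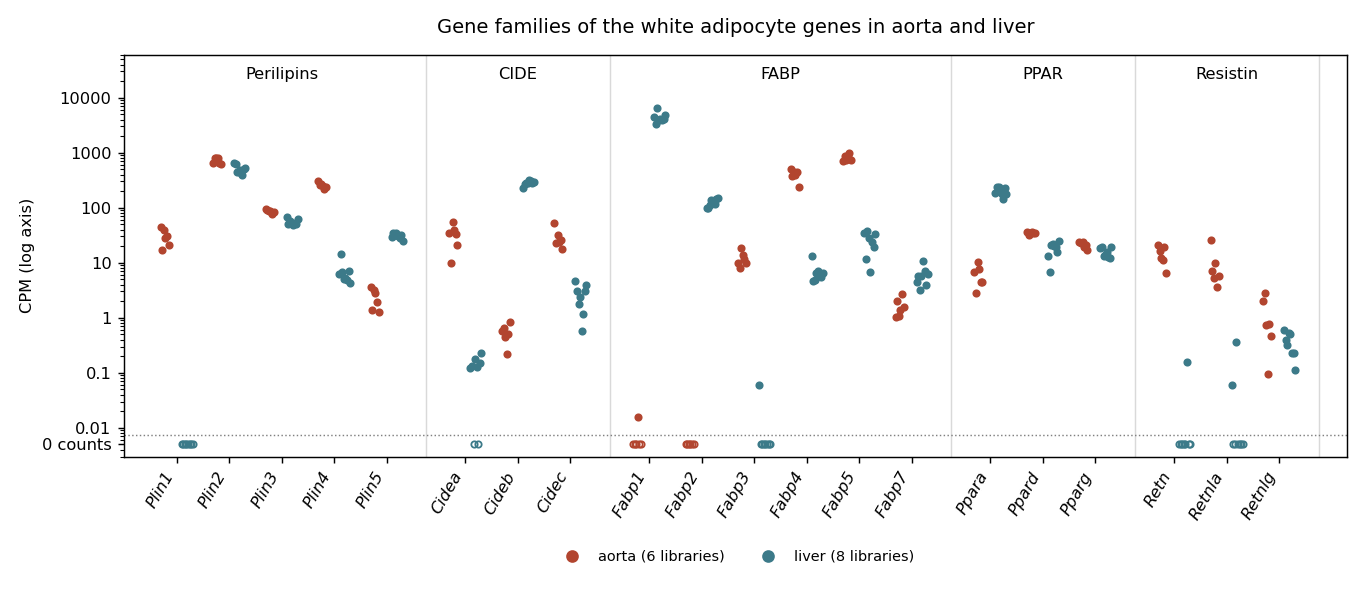
CPM on a log axis for the detected members of 5 gene families, with 6 aorta points and 8 liver points per gene and open points for 0 counts. Plin1, Plin4, Cidea, Cidec, Fabp4 and Fabp5 are higher in aorta, and Plin5, Cideb, Fabp1 and Ppara are higher in liver.

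The genomic sites are given on GRCm38 from the GENCODE M21 annotation, and all 10 genes are protein-coding. Adipoq lies at chr16:23146536-23158028 on the plus strand, Lep at chr6:29060220-29073877 on plus and Retn at chr8:3655770-3660110 on plus. Plin1 lies at chr7:79720218-79732903 on minus, Cidec at chr6:113424634-113435760 on minus and Fabp4 at chr3:10204088-10208576 on minus. Pnpla2 lies at chr7:141455198-141460743 on plus and Pparg at chr6:115360951-115490399 on plus. Plin4 at chr17:56100591-56109803 on minus overlaps Hdgfl2 on the other strand, and Lipe at chr7:25379527-25398710 on minus overlaps an antisense gene. Pparg overlaps the antisense gene Gm44079 on minus. The sources used here do not say whether the counting used strand, so reads of these 3 genes may include their partners, and the table marks the rows of Plin4 and Lipe as overlapping.

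Promoter windows from RefSeq on GRCm38.p6, with 250 bases before and 50 after each start, matched 9 of the 10 genes in 13 windows. Fabp4 was not matched. A pair is shown to set the sequence before a gene at or near 0 in liver beside that before a gene present in both tissues. The window of Adipoq holds 0 CG pairs, a content that 5.43% of all 32851 windows share. Plin1 and Retn, also near 0 in liver, had observed-over-expected CG ratios of 0.0862 and 0.0916, against a median of 0.384 over all windows. Pnpla2, present in both tissues, had 18 CG pairs and a ratio of 0.563. Other members did not divide that way. Lep had a ratio of 0.590 with 0 counts in liver, and Lipe, present in both tissues, had windows at 0.0748 and 0.681. Plin4 lay at 0.221, Cidec at 0.259 and 0.294, and the 3 Pparg windows at 0.170 to 0.909. The 250 bases before the start of Adipoq (chr16:23146286-23146535, plus strand) and Pnpla2 (chr7:141454938-141455187, plus strand) follow 5′ to 3′, with capitals marking each CG.
Adipoq: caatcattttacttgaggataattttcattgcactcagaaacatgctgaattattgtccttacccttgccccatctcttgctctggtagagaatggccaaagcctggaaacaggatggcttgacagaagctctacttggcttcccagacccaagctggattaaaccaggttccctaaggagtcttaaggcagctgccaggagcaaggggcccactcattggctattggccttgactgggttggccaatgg
Pnpla2: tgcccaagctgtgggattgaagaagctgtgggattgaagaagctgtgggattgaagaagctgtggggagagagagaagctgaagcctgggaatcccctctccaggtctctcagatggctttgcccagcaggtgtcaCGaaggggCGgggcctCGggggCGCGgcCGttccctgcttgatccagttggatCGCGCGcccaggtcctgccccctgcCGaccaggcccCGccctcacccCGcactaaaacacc

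C/EBP factors, which act beside PPAR gamma in adipocyte formation, recognise a pattern that was searched as TTGCNNAA on both strands. It stood in 4 of the 13 windows, those of Lep, Plin1, 1 of Cidec and 1 of Pparg, against 10.8% of all windows. AGGTCA, the core site of nuclear receptors, stood in 2 of 13 windows, both of Pparg, against 16.3% of all. A loose form of the DR1 element, the paired site of PPAR and RXR, was in 0 of 13 windows against 0.381% of all, and TATAAA in 1 of 13 against 13.6%. A match is only a match of letters, and none of these counts was tested. The windows with TTGCNNAA are shown for Plin1 (chr7:79732777-79733026, minus strand), Lep (chr6:29059971-29060220, plus strand) and the most downstream start of Pparg (chr6:115421816-115422065, plus strand), as the 250 bases before the start, 5′ to 3′, with the match on either strand in capitals. Plin1 and Pparg have 2 matches each and Lep has 1.
Plin1: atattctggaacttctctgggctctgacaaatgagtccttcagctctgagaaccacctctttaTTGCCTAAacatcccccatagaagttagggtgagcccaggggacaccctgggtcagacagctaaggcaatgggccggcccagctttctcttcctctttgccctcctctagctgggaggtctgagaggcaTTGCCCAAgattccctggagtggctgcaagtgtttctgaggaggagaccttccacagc
Lep: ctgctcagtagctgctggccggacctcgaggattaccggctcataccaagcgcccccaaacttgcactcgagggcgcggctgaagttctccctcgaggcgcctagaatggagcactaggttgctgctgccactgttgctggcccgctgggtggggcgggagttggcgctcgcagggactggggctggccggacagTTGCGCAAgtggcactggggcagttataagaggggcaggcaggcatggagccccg
Pparg: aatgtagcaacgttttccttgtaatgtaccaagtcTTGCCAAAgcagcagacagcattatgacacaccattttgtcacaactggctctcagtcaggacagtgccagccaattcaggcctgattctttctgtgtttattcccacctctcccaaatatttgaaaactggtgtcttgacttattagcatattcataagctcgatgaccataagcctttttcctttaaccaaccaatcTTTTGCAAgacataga

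The comparison of genotypes in aorta asked whether the T cell receptor transgene changed these genes. All 10 had a higher fitted level in BT3xHuBL than in HuBL aorta, and none passed the test. Their log2 fold changes ran from 0.22 to 0.93 with a median of 0.34, where the median of all 15400 features tested was -0.0044 and 48.5% of features were above 0. edgeR's quasi-likelihood test called 0.026% of features, 4 in all, and 0 of the 10 genes, with adjusted p from 0.787 to 1.00. DESeq2 and limma-voom also called 0 of the 10. At an unadjusted p under 0.05 there were 3 of the 10, against 4.08% of all features. The genes share cells and libraries, so their common direction is not 10 separate observations.

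The 3 genes were Pnpla2, Pparg and Plin4, and they were also the 3 whose genotypes did not overlap, a pattern with BT3xHuBL higher that 4.38% of all features showed. Pnpla2 averaged 133 ± 14.8 CPM (SD, n = 3) in HuBL and 170 ± 11.5 CPM (SD, n = 3) in BT3xHuBL. Its log2 fold change was 0.35 (SE 0.10, 95% interval 0.14 to 0.57, edgeR unadjusted p = 0.0036, adjusted p = 0.787). Pparg averaged 19.0 ± 2.16 CPM in HuBL and 23.4 ± 0.621 CPM in BT3xHuBL, a log2 fold change of 0.30 (SE 0.10, edgeR unadjusted p = 0.016, adjusted p = 1.00). Plin4 averaged 235 ± 16.3 CPM in HuBL and 274 ± 26.9 CPM in BT3xHuBL, a log2 fold change of 0.22 (SE 0.09, edgeR unadjusted p = 0.039, adjusted p = 1.00). These 3 genes had the narrowest ranges over the 6 aortas and the smallest standard errors of the 10, and their folds were not the largest.

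The hormones and the droplet genes Cidec and Plin1 had wider errors. Lep had a log2 fold change of 0.93 with a 95% interval of -1.32 to 3.18, and it ran from 0.41 without BT3xHuBL aorta 1 to 3.16 without HuBL aorta 1. Cidec averaged 22.3 ± 4.33 CPM in HuBL and 36.0 ± 15.6 CPM in BT3xHuBL, a log2 fold change of 0.69 (SE 0.35). Adipoq averaged 33.2 ± 9.39 CPM in HuBL and 49.1 ± 17.5 CPM in BT3xHuBL, a log2 fold change of 0.57 (SE 0.34, 95% interval -0.31 to 1.45). The fold changes of Retn at 0.43 (SE 0.44), Plin1 at 0.32 (SE 0.40), Fabp4 at 0.30 (SE 0.24) and Lipe at 0.29 (SE 0.23) had 95% intervals that included 0. Without BT3xHuBL aorta 1, the value was 0.24 for Adipoq, 0.31 for Cidec, 0.07 for Plin1 and 0.14 for Plin4. Retn ran from 0.13 without HuBL aorta 3 to 0.90 without HuBL aorta 2, and Fabp4 from 0.08 to 0.49 without the same libraries. Lipe was 0.16 without HuBL aorta 3 or BT3xHuBL aorta 1 and 0.49 without BT3xHuBL aorta 2, where Plin1 was 0.65. Without BT3xHuBL aorta 3, the library with few receptor counts, the members' median was 0.33, with Adipoq at 0.67, Cidec at 0.76, Plin1 at 0.19, Lep at 1.2, Retn at 0.60, Fabp4 at 0.29 and Lipe at 0.21. Pnpla2 was then at 0.37, Pparg at 0.28 and Plin4 at 0.25, with edgeR unadjusted p of 0.0074, 0.040 and 0.046 and adjusted p of 0.40, 0.63 and 0.64.

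**Figure D3:**
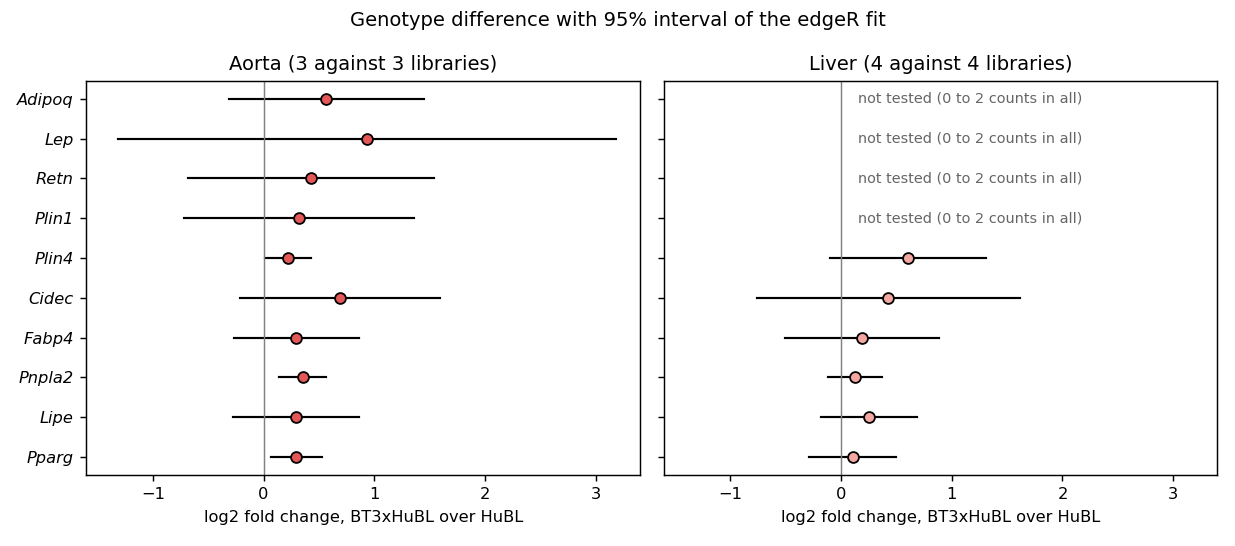
Log2 fold change of BT3xHuBL against HuBL for each gene in aorta and in liver, with bars for the 95% interval from edgeR. All 10 aorta points lie above 0 and 3 intervals (Pnpla2, Pparg, Plin4) exclude 0 before adjustment, and in liver the 6 tested intervals all include 0.

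The pathway around these genes was read from lists of the steps they serve. In aorta, 0 of 9 genes for lipases and their regulators passed edgeR's test in either direction. Their log2 fold changes had a median of 0.05, with 5 above 0 and 4 below. The members Pnpla2 and Lipe are in that list and among those above 0. Among adipocyte transcription factors, 0 of 10 passed, with 6 above 0. Among genes of fatty acid uptake and triglyceride synthesis, 0 of 20 passed, with 16 above 0 and a median of 0.08, including Cd36 at -0.06 (SE 0.22), Lpl at 0.10 (SE 0.16) and Dgat2 at 0.31 (SE 0.43). Among genes of the hormonal control of lipolysis, 0 of 13 passed and 11 were above 0, with a median of 0.20. By edgeR, 4 of these 13 had an unadjusted p under 0.05, against 4.08% of all features. In the lists before it these were 1 of 9, 1 of 10 and 1 of 20. The single gene that passed among all the lists was Tcap, a sarcomere gene of striated muscle, at 1.22 (SE 0.13, edgeR adjusted p = 0.0089). Cfd, the adipokine adipsin, measured 79.8, 185 and 89.1 CPM in the HuBL aortas and 188, 136 and 99.1 CPM in the BT3xHuBL aortas, with overlap.

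Single aortas stood high or low for most of the genes together. BT3xHuBL aorta 1 was the highest of the 6 aortas for 9 of the 10 genes, and HuBL aorta 3 was the lowest for 8 of the 10. Over the 9 genes at or above 1 CPM in the other aortas, BT3xHuBL aorta 1 lay above the median of the others for 9 of 9, by a median of 0.48 on the log2 scale. HuBL aorta 3 lay below it for 9 of 9, by a median log2 ratio of -0.57. This was not particular to the members. HuBL aorta 3 was also below for 13 of 13 genes of hormonal control of lipolysis, 19 of 20 of fatty acid uptake and synthesis and 5 of 5 of smooth muscle. It was below for only 3 of 9 adipocyte transcription factors and 1 of 6 progenitor genes. BT3xHuBL aorta 1 was above for 13 of 13 and 17 of 20 of the first 2 lists, but for 2 of 9 brown adipocyte genes. The summed level of the 10 genes was 952, 993 and 718 CPM in the HuBL aortas and 1270, 948 and 1087 CPM in the BT3xHuBL aortas. Those sums overlapped between genotypes.

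The genes differed in how widely they varied. The highest aorta exceeded the lowest 16.9 times for Lep, 3.23 times for Retn, 3.08 times for Adipoq, 3.04 times for Cidec and 2.63 times for Plin1. The range was narrower for Fabp4 at 2.09 times, Lipe at 1.82 times, Pnpla2 at 1.56 times, Pparg at 1.41 times and Plin4 at 1.40 times. Expressed as a ratio to Adipoq in the same aorta, Cidec was the steadiest, between 0.614 and 0.781, so the ratio spanned only 1.27 times where Cidec itself spanned 3.04 times. The ratio of Fabp4 to Adipoq spanned 1.56 times and that of Retn 1.64 times. For Pnpla2, Pparg and Plin4 the ratio to Adipoq spanned 1.98, 2.22 and 2.42 times, more than each gene alone. Lep spanned 11.1 times even as a ratio to Adipoq. These 6 points per gene share their libraries and are a description.

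**Figure D4:**
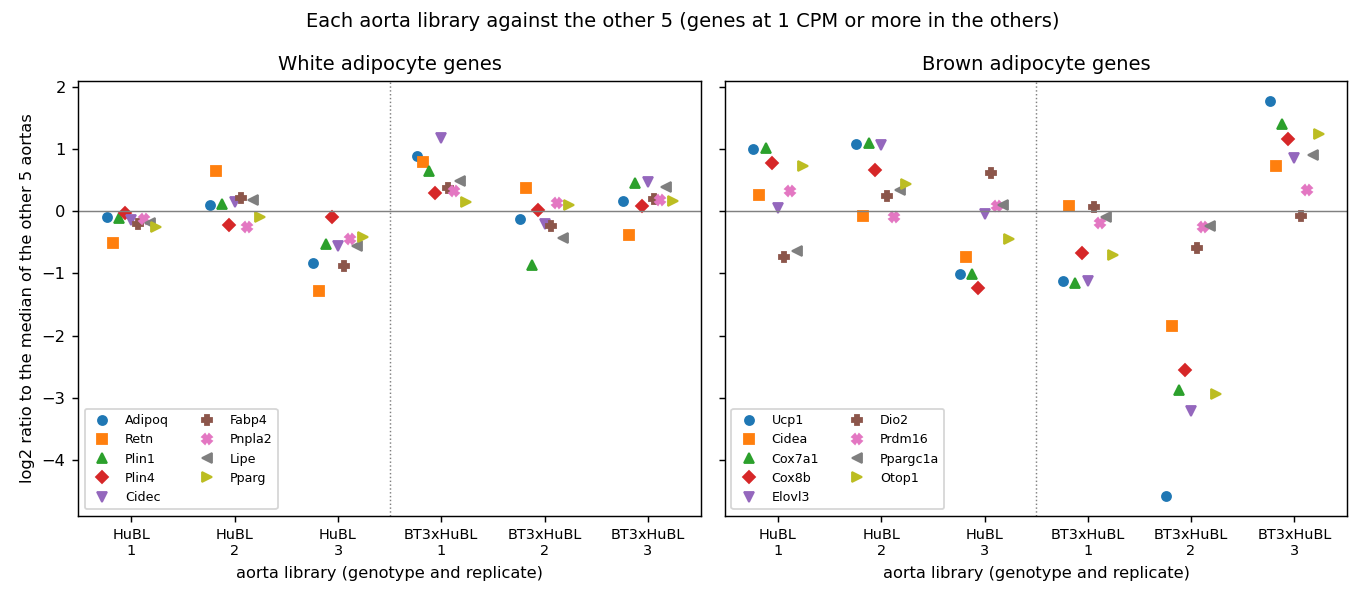
Log2 ratio of each aorta library to the median of the other aortas, gene by gene, on the left for 9 white adipocyte genes at or above 1 CPM in the others (Lep is left out) and on the right for 9 brown adipocyte genes. BT3xHuBL aorta 1 is above the others and HuBL aorta 3 below them for the white adipocyte genes, and BT3xHuBL aorta 2 is low for the brown adipocyte genes.

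Markers of other cells moved with some of these libraries, and their part in the result was not tested. The brown adipocyte list of 11 genes summed to 226, 232 and 183 CPM in the HuBL aortas and to 170, 91.4 and 314 CPM in the BT3xHuBL aortas. Its defining gene Ucp1, the uncoupler of brown fat, measured 63.8, 67.5 and 31.8 CPM across the HuBL libraries, against 29.3, 2.68 and 109 CPM across the BT3xHuBL ones. BT3xHuBL aorta 2 was thus low for brown fat, below the median of the others for 9 of 9 brown genes with a median log2 ratio of -2.56. The white genes did not move with it in step: in BT3xHuBL aorta 2, 5 lay below and 4 above the median of the others, with a median log2 ratio of -0.12. The genes of fatty acid uptake and synthesis went lower there for 17 of 20, with a median log2 ratio of -0.52. In BT3xHuBL aorta 1 these 2 lists parted. Brown genes were below for 7 of 9 (median -0.67), and uptake and synthesis genes above for 17 of 20 (median 0.22). In HuBL aorta 3 they were below for 6 of 9 and 19 of 20.

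Mesothelial markers, a list of 5 genes for the lining of body cavities, summed to 2.78, 2.20 and 2.04 CPM in the HuBL aortas and to 19.1, 4.52 and 1.04 CPM in the BT3xHuBL aortas. The highest sum was in BT3xHuBL aorta 1, the library that was highest for 9 of the 10 adipocyte genes, with Msln at 7.93 CPM and Upk3b at 6.57 CPM. Capillary endothelium markers, which share cells with Fabp4, summed to 928 to 970 CPM in HuBL and 998 to 1143 CPM in BT3xHuBL aortas. Aqp1 at 463 to 575 CPM and Pecam1 at 317 to 440 CPM over the 6 aortas made up most of that sum. Aqp1 did not overlap between genotypes, whereas Pecam1 did, as did Cdh5 at 79.6 to 94.9 CPM. Of the 7 genes, 6 were above 0 and 1 below. Macrophage markers summed to 12444 to 14341 CPM in HuBL and 10712 to 13337 CPM in BT3xHuBL, and smooth muscle markers to 12916 to 15099 CPM and 11714 to 16029 CPM. Their part in the genotype values was not tested either.

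The sums of several lists did not overlap between the genotypes in aorta, capillary endothelium among them. Most list sums overlapped, among them those of the members, their gene families, lipases, fatty acid uptake and synthesis, brown adipocyte, mesothelium, macrophage and smooth muscle. Of single features, 4.38% showed no overlap with BT3xHuBL higher, and the separation of the sums was not tested. A list of other adipokines, including Cfd, summed to 573 to 718 CPM in HuBL and 731 to 812 CPM in BT3xHuBL. Of its tested genes, 7 were above 0 and 2 below. Genes of the hormonal control of lipolysis summed to 1126 to 1362.9 CPM in HuBL and 1363.3 to 1432 CPM in BT3xHuBL, so the sums almost met. Cavin1 at 512 to 718 CPM and Cav1 at 343 to 434 CPM over the 6 aortas made up most of that sum. Adrb3, a receptor of this list, lay at 3.76 to 9.66 CPM with overlap. Of the 13 genes, 11 were above 0 and 2 below. B and plasma cell markers summed to 144 to 234 CPM in HuBL and 37.3 to 85.1 CPM in BT3xHuBL, with 6 of 6 genes below 0. By edgeR, 5 of 6 had an unadjusted p under 0.05, against 4.08% of all features, and 0 of 6 passed. Striated muscle markers summed to 37.5 to 41.5 CPM in HuBL and 59.1 to 74.5 CPM in BT3xHuBL. Tcap, at 16.3 to 48.4 CPM over the 6 aortas, was the largest part of that sum. Of the 8 striated muscle genes tested, 5 were above 0 and 3 below. Hepatocyte markers summed to 16.2 to 29.5 CPM in HuBL aortas and 33.7 to 57.6 CPM in BT3xHuBL aortas. That sum was almost all Cyp2e1, at 15.7 to 57.5 CPM over the 6 aortas, and their defining gene Alb stayed below 1 CPM. Of the 5 hepatocyte genes 2 were tested, with 1 above 0 and 1 below, so the sum does not describe the list as a whole. These lists stand beside the higher values of Pnpla2, Pparg and Plin4 in BT3xHuBL aorta, and their part in them was not tested.

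In liver the genotype comparison had less to work with. Only 6 of the 10 genes had enough counts to be tested, and edgeR called 0 of them and 0% of the 12453 features tested. All 6 were above 0, where 51.8% of features were, with log2 fold changes from 0.11 to 0.60, a median of 0.22 and adjusted p from 0.494 to 0.853. At an unadjusted p under 0.05 there were 0 of the 6 genes and 11.1% of all features, and DESeq2 and limma-voom called 0 of the 6. The 2 genotypes overlapped or were both at 0 for all 10 genes, where 6.57% of features did not overlap.

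Plin4 had the largest value in liver, 5.31 ± 1.19 CPM (SD, n = 4) in HuBL and 8.06 ± 4.15 CPM (SD, n = 4) in BT3xHuBL, a log2 fold change of 0.60 (SE 0.32), and it was 0.18 without BT3xHuBL liver 2. Cidec followed at 0.43 (SE 0.53), with 2.17 ± 1.57 CPM in HuBL and 2.94 ± 1.23 CPM in BT3xHuBL. It was 0.12 without BT3xHuBL liver 1 and 0.92 without HuBL liver 4. Lipe at 0.25 (SE 0.20), Pnpla2 at 0.13 (SE 0.11) and Pparg at 0.11 (SE 0.18) were close to 0 beside their errors. Fabp4 at 0.19 (SE 0.31) turned to -0.25 without BT3xHuBL liver 1. Cideb, the CIDE gene of hepatocytes, had a log2 fold change of -0.18 (SE 0.10, edgeR adjusted p = 0.50), and Plin2 of 0.18 (SE 0.15, edgeR adjusted p = 0.66).

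Receptors for the adipokines were present in liver, where Adipoq and Lep had at most 1 count in a library. Adipor2, a receptor for adiponectin, lay at 510 to 674 CPM in liver and 98.7 to 139 CPM in aorta, and Adipor1 at 84.9 to 105 CPM and 141 to 162 CPM. Lepr, the leptin receptor, was 20.3 CPM in BT3xHuBL liver 4 and 1.08 to 3.64 CPM in the other 7 livers. In aorta Lepr lay at 6.43 to 10.9 CPM. None of the 5 adipokine receptor genes passed edgeR's test between genotypes in either tissue. At an unadjusted p under 0.05 by that test there were 2 of 5 in liver, against 11.1% of all features. In aorta there were 0 of 5, against 4.08% of all features.

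The interaction of genotype with tissue was 0.24 (SE 0.16) for Pnpla2, 0.21 (SE 0.23) for Pparg, 0.29 (SE 0.66) for Cidec, 0.12 (SE 0.42) for Fabp4, 0.05 (SE 0.31) for Lipe and -0.37 (SE 0.37) for Plin4 on the log2 scale. edgeR called 0 of these 6 and 0% of the 14912 features, with 0 of the 6 and 8.16% of features at an unadjusted p under 0.05. DESeq2 called 0 of the 6. The intervals of all 6 include 0, so a difference between the tissues was not detectable for them. The fitted interaction values of Adipoq, Plin1, Lep and Retn are not read as results, since these genes had 0 to 2 liver counts over all libraries.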

How the data were processed

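RNA of 6 aortas and 8 livers was isolated with a column kit, and sequencing used the Lexogen QuantSeq V2 kit for transcript 3′ ends, per the labels' protocols. The deposited values are raw counts per gene. Reads were counted by the authors with HTSeq 2.0 on GRCm38, per the submitters' processing notes. The sources used here do not give the aligner, annotation or strand setting. Counts were tested within each tissue with edgeR 4.0.16 in R 4.3.3, by its robust quasi-likelihood test after filterByExpr and TMM scaling, at an adjusted p of 0.05 (Benjamini-Hochberg over all features tested). Tissue and interaction tests used all 14 libraries together. Standard errors are the log2 fold change over the root of the F statistic. CPM are counts over TMM-scaled totals within a tissue. Alternatives were DESeq2 1.42.0, limma-voom (limma 3.58.1), other scalings, no filter, a replicate block and leaving out each library. Library totals alone were added after the data were seen. The scripts were tested on simulated data. The members and lists were chosen with earlier results of these data known. Named genes are the 10 members, set relatives and partners, and any list gene passing between genotypes. Replicate numbers did not pair HuBL with BT3xHuBL libraries within a tissue. Whether an aorta and a liver of the same genotype and number share an animal was not checked.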

Additional observations from a re-analysis of the deposited data

Results flagged for a closer look

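Plin4 in BT3xHuBL liver 2 stood at 14.2 CPM, far from the other 3 livers of its group at 5.12 to 6.64 CPM. Its gap to the nearest library was 0.832 of the group's whole range, just past Dixon's critical value for 4 samples. This was 1 of 12 sets examined, each a gene within a liver group, and chance alone marks about 1 in 20 such sets. The 12 sets share their libraries and are not separate observations.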

How the results depend on the processing

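No white adipocyte gene changed direction or was called between genotypes in aorta under any of 130 gene-by-setting alternatives. The count of all features called in aorta was 4, and it became 68 with DESeq2, 0 with limma-voom, 9 without the filter on low counts, and 0 to 27 when leaving out a library, with 27 when BT3xHuBL aorta 3 was left out, 2 without HuBL aorta 1, and 0 without HuBL aorta 2 or 3. In liver the count was 0, and it became 133 with DESeq2, 5 in a fit of all 14 libraries, and 0 to 5 when leaving out a library, with 5 without BT3xHuBL liver 2 and 2 without BT3xHuBL liver 3. The interaction count went from 0 to 44 with DESeq2 and to 0 to 3 when leaving out a library, with 3 without BT3xHuBL liver 2. Between tissues the count stayed within 11976 to 12446 in HuBL and 12031 to 12432 in BT3xHuBL when leaving out a library. The median of the members ran from 0.23 to 0.48 in aorta and 0.12 to 0.33 in liver.

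With the replicate block the counts were 14 in aorta and 10 in liver. Same-numbered aortas correlated at -0.058, 0.14 and 0.0072 and same-numbered livers at -0.042, 0.16, 0.10 and 0.069 in their deviations, and not every sample correlated best with its own number. For the interaction and tissue tests, the block joined aorta and liver of the same genotype and number. It turned the interaction of Cidec to -0.35, of Lipe to -0.058 and of Pparg to -0.0023. It ended the tissue call of Pparg in HuBL, at -0.27. With library totals Pparg between tissues turned to 0.35 in HuBL and 0.52 in BT3xHuBL. Leaving out a library gave -0.25 to 0.36 for Fabp4 in liver, and for the interaction -0.53 to 0.047 for Plin4, -0.23 to 0.61 for Cidec, -0.10 to 0.56 for Fabp4, -0.10 to 0.25 for Lipe and -2.77 to 0.58 for Adipoq, which rests on 1 liver count. The cause of these changes was not tested. The tissue call in HuBL was lost without any of 7 single libraries for Lep and 4 for Pparg.

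In liver, 4 of the 10 genes had 0 to 2 counts in all and were not tested between genotypes.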
